A study of Mus musculus with 9 samples.

Results

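Integrin genes were followed in C2C12 cells, an established mouse myoblast line whose cells stop dividing and fuse to form multinucleate myotubes in low serum. The 10 genes described are Itgb7, Itgb1 and Itgb5 (beta subunits), Itga4, Itga5, Itga6, Itga7, Itga9 and Itgav (alpha subunits) and Itgb1bp2, which encodes the integrin-binding protein melusin. They were taken by symbol from the 47729 genes of the count table. Itgb7 was chosen by its count levels, which were far lower after differentiation than before it, so the measured change over days selected it. All changes over days of the 10 genes are therefore given as a description, and no p-value is given for them. Of the 10 genes, 9 passed the filter on low counts (1 CPM or more in 3 or more libraries, where CPM is the count scaled to library size), and Itga9 did not.

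The 3 cell populations were a control given a guide RNA with no target (WT), one with Per1 knocked out by CRISPR-Cas9 (Per1KO) and one with Per2 knocked out in the same way (Per2KO). All 3 are C2C12 populations grown in fetal bovine serum, moved to horse serum, and collected undifferentiated (day 0) or 3 and 5 days into differentiation. Each population and day had 1 library, 9 in all, and the labels do not say whether a population was 1 clone or a pool. Levels are CPM after TMM scaling of library sizes, with an exact Poisson 95% interval of the single count that covers counting error only. WT libraries held 5020385 to 6773320 counts and knockout libraries 41997763 to 48051824, and only the WT titles carry a lane suffix. Where a knockout is set against WT, depth, whatever this suffix marks, and genotype therefore cannot be told apart.

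Beside the C2C12 line, the tissue entry of the labels reads whole muscle. All 8 muscle markers were above 1 CPM somewhere, and Myog, a transcription factor of differentiating muscle, was at 124 CPM in WT on day 0 against 5.35 in Per1KO and 2.91 in Per2KO. Of 10 leukocyte markers, 2 reached 1 CPM in any library (Itgb2 and Lck), the summed level of the list lay between 1.78 and 5.37 CPM, Ptprc had at most 1 count and Cd3e had 0 in all libraries. Of 5 endothelial markers, 1 (Tek) reached 1 CPM. Of 4 fibroblast markers, 3 reached 1 CPM and Thy1 had 0 counts in all libraries, and their summed level was 669, 1822 and 3832 CPM on days 0, 3 and 5 in WT against 71.7 to 319.8 CPM in the knockouts, most of it Col1a1. The targeted genes were still detected as mRNA, and their level does not by itself check the labels, since guides cut DNA: on day 0 Per1 was at 20.9 CPM in Per1KO and 35.6 in WT, and at 16.5 in Per2KO. On day 3 Per1 was at 32.4 CPM in Per1KO and 33.8 in WT, and on day 5 its Per1KO level of 28.9 CPM lay inside the WT counting interval of 26.1 to 36.6. Per2 was at 3.50, 9.13 and 8.38 CPM in Per2KO on days 0, 3 and 5, at 9.74, 11.5 and 20.5 in WT, and at 6.59, 9.44 and 10.6 in Per1KO.

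Integrins are pairs of 1 alpha and 1 beta subunit that span the plasma membrane, bind matrix or other cells outside and connect to actin inside through talin and kindlin. The beta 7 subunit pairs with alpha 4 or alpha E and is best known on lymphocytes, where it binds MAdCAM-1 or E-cadherin. The alpha 7 subunit with beta 1 is the main laminin receptor of skeletal muscle, and alpha 5 with beta 1 is the classic fibronectin receptor of cultured cells. Melusin binds the cytoplasmic part of beta 1 in striated muscle. RNA levels say nothing of which pairs formed, and in bulk RNA fewer cells with a transcript and less of it per cell cannot be told apart.

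Itgb7 (ENSMUSG00000001281) lies on the minus strand of chromosome 15, from 102215995 to 102231944 in build GRCm38. No annotated gene overlaps it, and 0% of the 31-base words of its longest transcript occur in another gene. The 250 bases before a RefSeq transcription start (GRCm38.p6) are shown for Itgb7, whose fitted level was lower on both later days, for Itgb5, a beta subunit that was higher on them, and for Itga4, which had the lowest fitted log2 difference from WT over the 3 days in both knockouts. The table used holds an entry for 7 of the 10 genes. Itga6, Itga7 and Itgb1bp2 have none in it. Capitals mark each CANNTG, the E-box bound by basic helix-loop-helix factors, which include the MYOD and CLOCK families. The motif reads CANNTG on both strands, and CAGCTG and CACGTG are forms of it.
Itgb7, chr15:102231936-102232185, minus strand: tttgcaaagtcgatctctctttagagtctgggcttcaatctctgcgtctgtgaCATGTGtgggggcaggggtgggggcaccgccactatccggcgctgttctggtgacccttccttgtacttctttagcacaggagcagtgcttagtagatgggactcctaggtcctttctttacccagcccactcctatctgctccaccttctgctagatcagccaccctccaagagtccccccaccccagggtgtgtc
Itgb5, chr16:33829415-33829664, plus strand: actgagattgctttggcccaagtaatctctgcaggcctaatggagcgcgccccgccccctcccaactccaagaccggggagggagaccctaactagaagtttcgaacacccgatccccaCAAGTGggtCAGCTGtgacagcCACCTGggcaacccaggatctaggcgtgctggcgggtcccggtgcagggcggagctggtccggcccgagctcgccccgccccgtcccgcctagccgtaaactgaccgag
Itga4, chr2:79255176-79255425, plus strand: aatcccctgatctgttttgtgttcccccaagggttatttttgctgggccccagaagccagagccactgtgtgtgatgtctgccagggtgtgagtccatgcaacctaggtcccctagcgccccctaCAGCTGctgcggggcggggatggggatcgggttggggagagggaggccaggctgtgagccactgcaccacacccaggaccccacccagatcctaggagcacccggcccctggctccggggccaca
Itgb7 held 1 E-box in this window, CATGTG, and no CAGCTG. Itgb5 held 3, of which 1 was CAGCTG, and Itga4 held 1, also CAGCTG. None of the 7 windows held CACGTG. Over all 32851 windows of the same length, 66.2% held a CANNTG, 13.0% a CAGCTG and 6.02% a CACGTG. A match describes letters in this window and not a bound site.

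Itgb7 was high only on day 0. WT had 211 counts on day 0, or 29.8 CPM (25.9 to 34.1), and 0 counts on days 3 and 5. The limit that such a 0 leaves, 3 counts, equals 0.547 CPM on day 3 and 0.660 CPM on day 5. The Per1KO level was 54.4 CPM before differentiation (52.4 to 56.5), 3.71 on day 3 (3.18 to 4.29) and 2.02 on day 5 (1.61 to 2.50). The Per2KO level was 83.9 CPM (81.4 to 86.5), 3.95 (3.41 to 4.56) and 2.68 (2.20 to 3.23) on the same days. The 3 day 0 libraries lay above all 6 later ones, and among day 0 libraries the order was WT, Per1KO, Per2KO with intervals that did not overlap. Per1KO and Per2KO could not be separated on day 3, nor on day 5, by their counting intervals.

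Between single libraries, Itgb7 on day 3 was at least 54.4-fold lower than on day 0 in WT, against the floor of 3 counts. It was 14.7-fold lower in Per1KO and 21.2-fold lower in Per2KO. From day 3 to day 5 it was 1.84-fold lower in Per1KO (ratio 0.544, counting interval 0.415 to 0.709) and 1.48-fold lower in Per2KO (0.678, 0.531 to 0.861). Most of the difference over days was thus already present on day 3.

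**Figure D1:**
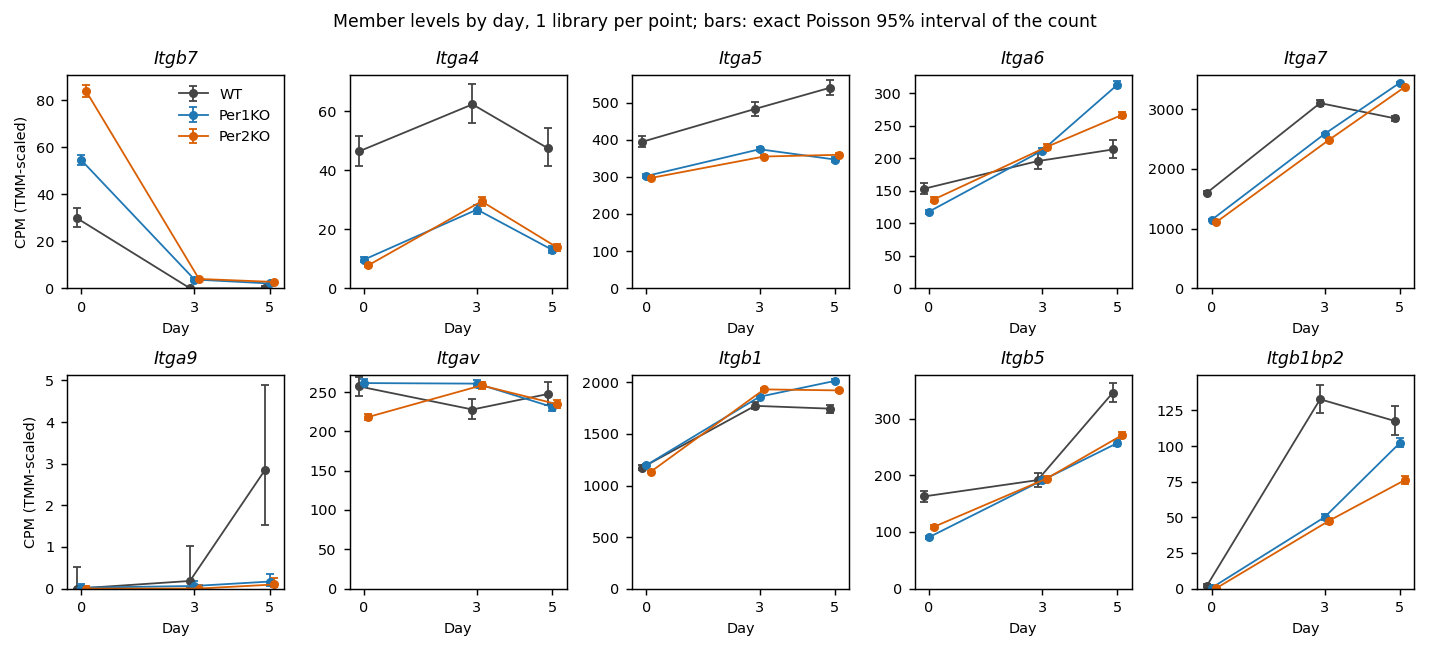
Level of each of the 10 genes (vertical axis, TMM-scaled CPM, each panel from 0) against day of differentiation (horizontal axis) in WT (grey), Per1KO (blue) and Per2KO (orange), with exact Poisson 95% intervals of the count as bars. Itgb7 is high only on day 0, Itga4 and Itga5 lie lower in both knockouts than in WT on all 3 days, and Itgb1bp2 is near 0 on day 0.

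Itgb1 and Itgb5 were higher after differentiation. Itgb1 (chromosome 8, 128685654 to 128733200), which pairs with most alpha subunits of muscle, was at 1173, 1773 and 1746 CPM on days 0, 3 and 5 in WT. It was at 1198, 1861 and 2015 CPM in Per1KO and at 1135, 1933 and 1923 CPM in Per2KO. Every day 0 library lay below every later one, with fitted log2 differences from day 0 of 0.67 ± 0.12 (SE) on day 3 and 0.69 ± 0.12 on day 5. Itgb5 (chromosome 16, 33829665 to 33949338), which pairs with alpha V in a vitronectin receptor, was at 163, 191 and 346 CPM in WT. Its levels were 90.6, 191 and 257 CPM in Per1KO, and 109, 194 and 271 CPM in Per2KO. The 3 populations were alike on day 3 and apart on days 0 and 5, where WT was higher than both knockouts. Of the 31-base words of Itgb5, 8.70% also occur in Gm38317, which had at most 306 counts in a library where Itgb5 had 10695.

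Among alpha subunits, Itga7 (chromosome 10, 128933818 to 128958282) had the highest counts. It was at 1601, 3102 and 2844 CPM on days 0, 3 and 5 in WT, at 1145, 2585 and 3444 CPM in Per1KO, and at 1105, 2487 and 3368 CPM in Per2KO. All day 0 libraries lay below all later ones. The knockouts were below WT on days 0 and 3 and above it on day 5. Itga6 (chromosome 2, 71745616 to 71858416), another laminin-binding subunit, was at 153, 195 and 213 CPM in WT, 118, 212 and 313 in Per1KO, and 136, 217 and 266 in Per2KO. Its order also changed, but at an earlier day than that of Itga7: the knockouts were below WT on day 0 and above it on days 3 and 5. Of the 31-base words of Itga6, 6.92% also occur in Gm29397, which had at most 262 counts in a library where Itga6 had 13026.

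Itga4 (chromosome 2, 79255426 to 79333123), the partner of beta 7 and of beta 1 in receptors for VCAM-1 and fibronectin, peaked on day 3 in each population. WT levels were 46.5 CPM on day 0 (41.6 to 51.8), 62.4 on day 3 (56.0 to 69.4) and 47.5 on day 5 (41.4 to 54.3). Per1KO was at 9.69, 26.7 and 13.0 CPM, and Per2KO at 7.82, 29.5 and 13.9. All 3 WT libraries lay above all 6 knockout libraries, and within the knockouts day 3 was the highest. Exons of Cerkl overlap Itga4 on the opposite strand, and the strand setting of the counting is not given in the sources used here. Cerkl had at most 13 counts in any library, against at least 216 for Itga4.

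Itga5 (chromosome 15, 103344286 to 103366763) was at 394, 483 and 540.1 CPM in WT, 302, 374 and 347 in Per1KO, and 297, 355 and 359 in Per2KO. Again every WT library was above every knockout library. Itgav (chromosome 2, 83724397 to 83806916), the alpha subunit of vitronectin and TGF-beta-activating receptors, stayed between 218 and 262 CPM in all 9 libraries. Its day 5 to day 0 difference was -0.04 ± 0.12 on the log2 scale, the smallest size among the 9 genes fitted. Itga9 (chromosome 9, 118606690 to 118901003), whose product binds tenascin-C and ADAM proteins, had 0, 1 and 13 counts in WT and at most 7 in any knockout library. Its WT level on day 5 was 2.86 CPM (1.52 to 4.89), above the interval of each other library, and Per1KO and Per2KO on that day were at 0.0588 (0.0199 to 0.159) and 0.0341 (0.00809 to 0.110) times WT.

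Itgb1bp2 (chromosome X, 101449088 to 101453541) showed the reverse of Itgb7. In WT the day 0 level was 2.12 CPM (15 counts), with 133 on day 3 and 117 on day 5. In Per1KO it was at 0.426 CPM (21 counts), 50.1 and 102 CPM, and in Per2KO at 0.138 CPM (7 counts), 47.6 and 76.0 CPM. Between single libraries, day 5 stood 55.4-fold above day 0 in WT (counting interval 33.3 to 99.7), 240.1-fold in Per1KO (157 to 388) and 551-fold in Per2KO (267 to 1373). WT was highest on each day, and so was its summed level of the muscle markers. On day 0 this sum was 3185 CPM in WT, 1773 in Per1KO and 1449.8 in Per2KO. Not every marker followed the sum. On day 5 Ckm was at 276 CPM in WT against 435 in Per1KO and 332 in Per2KO. Des was then at 3600 CPM in WT against 4117 and 3854. On day 0 Myf5 was at 67.9 CPM in WT and 130.65 in Per2KO. The part of these markers in the result was not tested.

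Set side by side, Itga4, Itga5, Itga6, Itga7, Itgb1, Itgb5 and Itgb1bp2 were above day 0 of their own population in all 6 later libraries. Itgb7 was below it in all 6, and Itgav lay on either side. For Itga4 in WT, day 5 could not be told from day 0 by counting (ratio 1.02, counting interval 0.857 to 1.22). The change over days selected Itgb7, so the counts of the 9 fitted genes past an adjusted p of 0.05 by edgeR are a description, Itgb7 included, and are read no further. They were 7 for days 3 and 0, where 35% of the 13324 genes tested were past it (18.1% higher, 16.9% lower), and 6 for days 5 and 0, where 46.1% were (23.2% higher, 22.9% lower). For days 5 and 3 they were 0, with 2 at an unadjusted p under 0.05 and 2 by DESeq2, where 1.79% of all genes were past it. The day 3 count was 2 without Per1KO and also without Per2KO, and the count for days 5 and 3 was 5 without WT. The median log2 difference of the 9 fitted genes was 0.67 on day 3 and 0.69 on day 5, against -0.01 over all genes on either day. The list was chosen with earlier results of these data known, so these medians too are a description and are read no further.

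**Figure D2:**
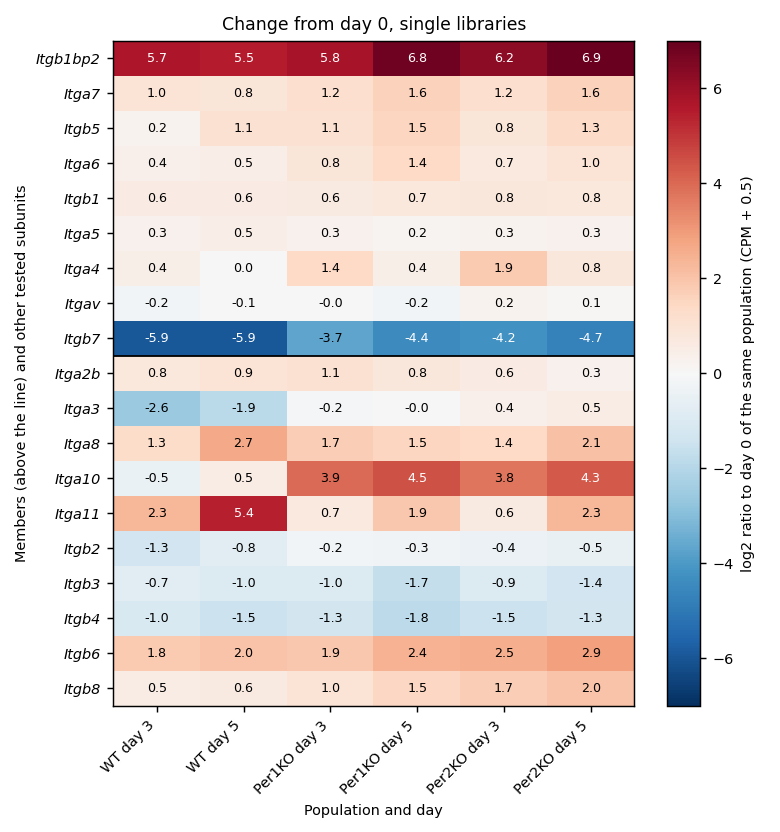
Log2 ratio of each later library to day 0 of the same population, from CPM with 0.5 added, for the 9 fitted genes (above the line) and the 10 other integrin subunits that passed the filter (below it). Red is higher than day 0 and blue is lower. Itgb7 and Itgb1bp2 stand at opposite ends, and the added 0.5 limits the size shown where a level is near 0.

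To describe the make-up of the integrin transcripts, CPM was divided by the exon length of each gene and expressed as a share of all 18 alpha or all 9 beta subunits. Itga7 was the leading alpha subunit in each of the 9 libraries. Its share was 54.5%, 71.3% and 66.4% on days 0, 3 and 5 in WT. It was 52.3%, 67.2% and 72.4% in Per1KO, and 53.7%, 66.8% and 72.1% in Per2KO. Itga5 came next in each library, with 22.0%, 18.2% and 20.7% in WT, 22.7%, 15.9% and 11.9% in Per1KO, and 23.7%, 15.6% and 12.6% in Per2KO. Thus the Itga5 share on day 5 was lower in the knockouts than in WT, while its day 0 share was not. Itga4, the partner of beta 7, never held more than 0.915% of the alpha transcripts, and Itgae, its other partner, never more than 0.0135%.

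Itgb1 was the leading beta subunit in every library, at 78.8% to 87.8%. Itgb5 was second in every library, at 7.26% to 18.0%. On day 0 Itgb7 held 2.95% of the beta transcripts in WT, 5.59% in Per1KO and 8.67% in Per2KO, where Itgb5 held 12.5%, 7.26% and 8.75%. Per length, Itgb7 and Itgb5 were therefore nearly level in Per2KO on day 0. On days 3 and 5 the Itgb7 share was at most 0.264%. These shares rest on the annotated exon length. With the longest transcript instead, Itga7 ranged from 62.8% to 79.3% and Itga5 from 7.25% to 15.6%, and Itgb1 and Itgb7 moved by less than 1 percentage point.

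**Figure D3:**
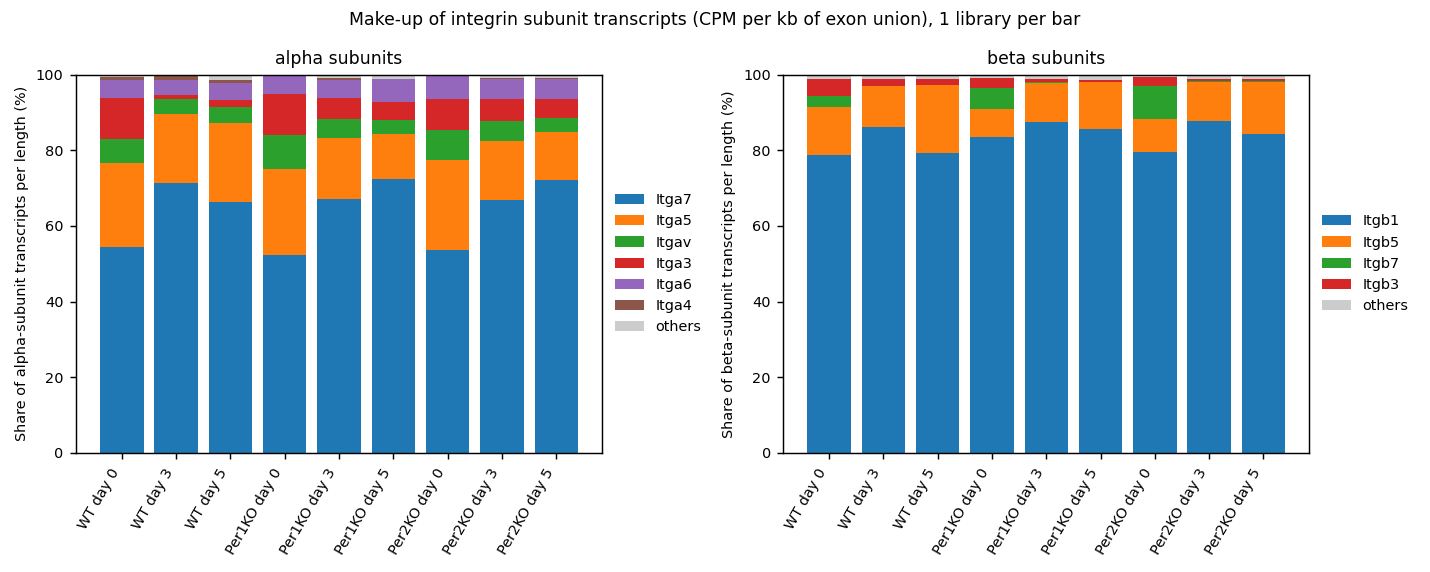
Share of each subunit among all alpha (left) or all beta (right) subunit transcripts (vertical axis, percent of CPM per kilobase of exon) in each of the 9 libraries (horizontal axis, 1 bar per library). Itga7 takes 52.3% to 72.4% of the alpha transcripts, and Itgb7 (green, right) is visible on day 0 and at most 0.264% later.

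Whether the knockouts differed from WT was tested over the 3 days, which stand in for replicates. Itgb7 was picked by its change over days and not by this contrast. The genes were chosen with earlier results of these data known, so their choice may not be independent of the difference from WT. The p-values of this test rest on how these 9 libraries depart from an additive fit of genotype and day. They speak of these populations only. Both comparisons share the 3 WT libraries. In Per1KO, 2 of the 9 tested genes passed the threshold, both lower (Itga4 and Itga5), beside 19.3% of all genes tested (10.1% lower, 9.26% higher). In Per2KO, 4 of 9 passed beside 19.9%: Itga4, Itga5 and Itgb1bp2 were lower, beside 10.6% called lower, and Itgb7 was higher, beside 9.31%. The share of Per1KO is near its background. The count in Per1KO was 1 without day 3 and 0 without day 5, and in Per2KO it was 1 without either of these days. The fibroblast markers moved with the genotype as well, with a summed level of at least 669 CPM in each WT library and at most 319.8 CPM in each knockout library, and their part in the differences from WT was not tested. The median log2 difference of the 9 fitted genes was -0.17 in Per1KO and -0.22 in Per2KO, against -0.02 and -0.01 over all genes.

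Itga4 had the largest difference among the genes called lower. With edgeR, Per1KO stood at -1.81 ± 0.25 relative to WT on the log2 scale (adjusted p 0.00241) and Per2KO at -1.82 ± 0.26 (adjusted p 0.00242), lower on 3 of 3 days in both. By day, its level was 4.79-fold, 2.34-fold and 3.65-fold below WT in Per1KO on days 0, 3 and 5. In Per2KO it was 5.95-fold, 2.12-fold and 3.42-fold below. The call was kept in Per2KO under each of the 9 alternatives, and in Per1KO under 8, missing the threshold without day 5 (adjusted p 0.0517).

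Itga5 differed by less. Per1KO stood at -0.46 ± 0.11 on the log2 scale (adjusted p 0.0269) and Per2KO at -0.48 ± 0.11 (adjusted p 0.0228), lower on 3 of 3 days. In both knockouts it missed the threshold without a filter on low counts, without day 3, without day 5 and when only the 6 libraries compared were fitted, where adjusted p ranged from 0.0760 to 0.259. Each setting kept its direction.

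For Itgb7 the fit gave a log2 difference from WT of 1.91 ± 0.51 in Per2KO (adjusted p 0.0362) and 1.54 ± 0.52 in Per1KO (adjusted p 0.0761, not past the threshold). The fitted size depends on how WT libraries with 0 counts are treated. On day 0, where all libraries had counts, Per1KO was 1.83-fold (counting interval 1.59 to 2.11) and Per2KO 2.82-fold (2.45 to 3.25) above WT. On day 3 they were at least 6.77-fold and 7.22-fold higher than the WT floor, and on day 5 at least 3.06-fold and 4.06-fold. The direction was the same on 3 of 3 days in both. In Per2KO the threshold was missed without the filter (adjusted p 0.0901), without day 3 (0.106), without day 5 (0.141) and with the 6 libraries alone (0.122). In Per1KO it was passed with DESeq2 (adjusted p 0.0295) and without day 0 (0.0100).

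Itgb1bp2 stood at -1.39 ± 0.40 relative to WT in Per2KO on the log2 scale (adjusted p 0.0486) and -0.999 ± 0.41 in Per1KO (adjusted p 0.128). The Per2KO value lies close to the threshold and missed it under 6 of 9 alternatives, with adjusted p from 0.05 to 0.285. In Per1KO it passed with DESeq2 (-1.25, adjusted p 0.0242) and under no other alternative. The other 5 fitted genes did not pass in either knockout. Itgb1 had 0.10 ± 0.12 and 0.07 ± 0.12 in Per1KO and Per2KO, Itgav had 0.04 ± 0.12 and -0.04 ± 0.12, and Itgb5 had -0.43 ± 0.16 and -0.32 ± 0.16.

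**Figure D4:**
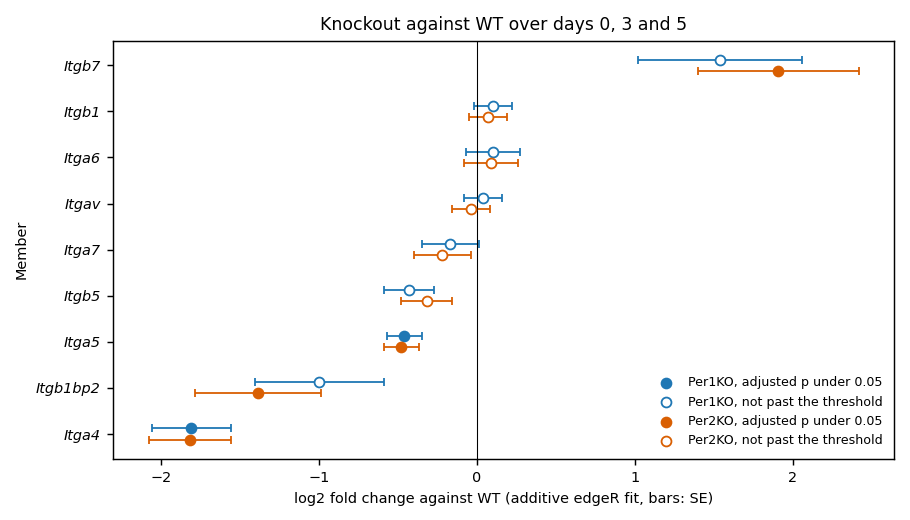
Fitted log2 fold change against WT (horizontal axis, bars are SE) of the 9 fitted genes in Per1KO (blue) and Per2KO (orange). Filled points passed an adjusted p of 0.05, among them Itga4 and Itga5 to the left in both knockouts and Itgb7 to the right in Per2KO.

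Between the knockouts, 0 of 9 genes passed by edgeR, beside 0% of all genes tested, and 0 of the 9 had an unadjusted p under 0.05 or were called by DESeq2. The largest differences were those of Itgb1bp2, 0.39 ± 0.38 higher in Per1KO on the log2 scale, and Itgb7, -0.37 ± 0.39. Itga4 differed by 0.00 ± 0.24. A missed threshold does not show that the populations are alike. On day 0, in single libraries, Itgb7 in Per1KO was 0.649 times Per2KO (counting interval 0.618 to 0.681).

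A differing response to differentiation (days 3 and 5 against day 0, mean of both knockouts against WT) was called by edgeR for 0 of 9 genes, beside 0.18% of all genes. At an unadjusted p under 0.05 there were 2, Itgb7 and Itgb1bp2 (adjusted p 0.325), neither past the adjusted threshold. DESeq2 called 1, Itgb7, which also passed without the filter on low counts. The change over days selected Itgb7 and enters this contrast, so its calls here are a description and are read no further. No fold is given for Itgb7 here because the WT response ends at 0 counts.

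The 18 integrin subunits outside the list include 10 that passed the filter. Itgax, the alpha X subunit of myeloid cells, had 0 counts in all libraries, and other leukocyte subunits (Itgad, Itgae, Itgal, Itgam) stayed under 1 CPM. On day 5 against day 0, 6 of the 10 tested rose and 2 fell, where 46.1% of all genes were called. Itgb6, which pairs with alpha V, rose from 5.65 to 24.4 CPM in WT, from 3.83 to 22.8 in Per1KO and from 2.36 to 20.2 in Per2KO (log2 fold change 2.62 ± 0.21, adjusted p 6.77e-05). Itgb8, also a partner of alpha V, rose by 1.43 ± 0.25 (adjusted p 0.00276). Itga10, a collagen-binding subunit, rose by 3.40 ± 1.04 (adjusted p 0.0309), with 9.18 CPM on day 0 and 13.4 on day 5 in WT, but 0.771 and 27.9 in Per1KO, and 33.5% of its exon length is shared with Gm42957.

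The genes that fell were Itgb4 and Itgb3, the latter a partner of alpha V in a vitronectin receptor. Itgb3 went from 96.7, 56.8 and 48.3 CPM on day 0 to 49.0, 17.2 and 18.6 CPM on day 5 (log2 fold change -1.36 ± 0.15, adjusted p 2.92e-04). It was also lower in Per1KO (-1.08 ± 0.15, adjusted p 0.00241) and in Per2KO (-1.20 ± 0.15, adjusted p 0.00147) than in WT. Against WT, 5 of the 10 subunits were lower in Per1KO (Itgb2, Itgb3, Itgb4, Itga11 and Itga2b) and 3 in Per2KO (Itgb2, Itgb3 and Itga11), where 10.1% and 10.6% of all genes were called lower.

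Itga3, a laminin-binding alpha subunit, was named after its values were seen. WT had 223 CPM on day 0, then 35.9 and 58.9 CPM, while knockout libraries lay between 119.8 and 170.4 CPM on all days. Its share of the alpha transcripts in WT went from 10.7% to 1.17% and 1.95%.

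Of 28 genes of integrin activation and the adhesion complex, 25 were tested, and 5 rose and 5 fell on day 5 against day 0, a share below the 46.1% called over all genes. Tln2, the talin of mature muscle, rose by 0.85 ± 0.20 (adjusted p 0.0109), Flnc, the muscle filamin, by 1.53 ± 0.22 (adjusted p 0.00103), and Tns1, tensin 1, by 0.83 ± 0.19 (adjusted p 0.00890). Flna, the filamin of most cells, fell by 1.31 on the log2 scale (SE 0.15, adjusted p 3.63e-04). Src fell by 1.17 (SE 0.15, adjusted p 5.70e-04) and Ptk2b, a relative of focal adhesion kinase, by 0.95 (SE 0.12, adjusted p 4.97e-04). The median over the list was 0.00, against -0.01 over all genes.

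Of these 25 genes, Per1KO had 1 above WT (Ilk) and 2 below it, and Per2KO had 2 above (Ilk and Lims2) and 2 below. These shares lie below the 19.3% and 19.9% called over all genes. Ptk2b stood at -0.60 ± 0.12 in Per1KO (adjusted p 0.0112) and at -0.74 ± 0.12 in Per2KO (adjusted p 0.00429). Lims2, a PINCH adaptor protein, stood at 0.88 ± 0.25 in Per2KO (adjusted p 0.0463). Parvb, beta-parvin, was lower by 0.48 and 0.65 (log2 fold changes -0.48 ± 0.14, adjusted p 0.0473, and -0.65 ± 0.14, adjusted p 0.0143). Ilk, integrin-linked kinase, was listed higher in both (3.90 ± 0.33, adjusted p 2.42e-04, and 3.96 ± 0.33, adjusted p 2.27e-04). Exons of Taf10 on the opposite strand cover 76.7% of its exon length and those of Rrp8 12.9%, so its count is uncertain.

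Of 24 ligand genes, 20 were tested, with 9 higher and 5 lower on day 5 than on day 0, where 23.2% of all genes were called higher and 22.9% lower. Madcam1, the ligand of alpha 4 beta 7, had 0 counts in all 9 libraries. Cdh1, E-cadherin, the ligand of alpha E beta 7, was at most 2.68 CPM on day 0 and rose to 8.96 CPM or more on day 5 (log2 fold change 2.23 ± 0.22, adjusted p 1.58e-04). Npnt, nephronectin, rose by 2.11 ± 0.20 (adjusted p 1.42e-04) and Lama4, a laminin alpha chain, by 4.72 ± 0.32 (adjusted p 2.97e-05). Spp1, osteopontin, fell by 1.81 (SE 0.30, adjusted p 0.00200), Tnc, tenascin-C, by 2.04 (SE 0.43, adjusted p 0.00705), and Nid1, nidogen, by 1.62 (SE 0.25, adjusted p 0.00143).

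Of the 20 ligand genes, Per1KO had 4 below WT and 1 above it, and Per2KO had 5 below and 1 above, where 10.1% and 10.6% of all genes were called lower and 9.26% and 9.31% higher. Adam12, a membrane protease that binds alpha 9 beta 1, was at 57.0 CPM on day 5 in WT and at 3.72 and 4.07 CPM in the knockouts, with log2 fold changes of -2.76 ± 0.50 (adjusted p 0.00865) and -3.27 ± 0.50 (adjusted p 0.00395). Lama4 was lower by 2.86 in Per1KO (log2 fold change -2.86 ± 0.29, adjusted p 5.42e-04) and had -2.31 ± 0.29 in Per2KO (adjusted p 0.00134). Lamb3, a laminin beta chain, had -1.40 ± 0.23 in Per1KO (adjusted p 0.00497). Tnc had -1.52 ± 0.42 in Per2KO (adjusted p 0.0425).

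The genes whose log2 CPM over the 9 libraries was most like that of Itgb7 were Qser1 (Pearson r 0.989), Pir (0.988), Prpsap1 (0.987), Gpr137b (0.986) and Specc1 (0.980). These share the libraries and the day 0 to day 3 step with Itgb7, so r is a description. Their range was smaller: Qser1 went from 145 to 67.1 CPM between days 0 and 3 in WT. Of the genes in the list, Itgb1bp2 and Itga5 ran most opposite to Itgb7, with r of -0.847 and -0.887. Itga7 was most like Tmub2 (0.997), Nmrk2 (0.996), Sntb1 (0.9945), Sgca (0.994) and Cobl (0.993). Sgca and Sntb1 encode parts of the dystrophin complex, the other laminin receptor of muscle. Within the list, Itga7 was most like Itgb1bp2 (0.981) and Itgb1 (0.941).

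The tested genes next to Itgb7 on chromosome 15 did not share its size of change. Zfp740, whose end lies 389 bases away, had a log2 difference of -0.47 ± 0.16 between days 5 and 0 (adjusted p 0.0437). Rarg, a retinoic acid receptor 2994 bases away on the other side, had -0.82 ± 0.17 (adjusted p 0.00545). Csad had 0.71 ± 0.32 and Mfsd5 -0.07 ± 0.10, neither past the threshold. Espl1, separase of dividing cells, 64322 bases away, had -3.16 ± 0.17 (adjusted p 1.20e-05). The 4 markers of proliferating cells were also lower on the later days. Their summed levels were 978 to 1506 CPM on day 0, 314 to 501 on day 3 and 114 to 217 on day 5. On day 0 the sum was highest in Per1KO, whereas Itgb7 was highest in Per2KO. The part of these markers in the result was not tested.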

How the data were processed

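Poly-adenylated RNA of 9 C2C12 libraries (1 per population and day) was sequenced as single reads, per the labels' protocols. The deposited table holds whole-number read counts per gene made by the authors. The submitters' processing notes name CASAVA 1.8, HISAT2 2.1.0 and the build mm10. The counting program, its annotation and its strand setting are not given in the sources used here.

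Counts were fitted with edgeR 4.0.16 (quasi-likelihood test, TMM scaling, R 4.3.3) with genotype and day as terms, which left 4 residual degrees of freedom. The difference in response to differentiation was fitted with an interaction and left 3. Of 47729 genes, the 13324 that reached 1 CPM in 3 or more libraries were tested. P-values were adjusted by Benjamini-Hochberg over these, with a threshold of 0.05. No population had a replicate, so the error comes from how the days and populations depart from the additive model, and it may be technical. The fits were also run on simulated counts in which only 200 genes changed. That setting is simpler than these data, and no result here rests on it. Alternatives were the scaling, the filter, DESeq2 1.42.0, the libraries fitted, leaving out a day or population, and the transcript length.

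All 10 genes are named. From each of 3 gene lists, up to 3 called genes per direction with the largest log2 fold change and a mean of at least 5 CPM are named for day 5 against day 0 and for each knockout against WT. The 5 tested genes most correlated with Itgb7, and with Itga7, are named as well. The members and lists were chosen with earlier results of these data known. Positions come from GENCODE M21 (GRCm38) and promoters from RefSeq (GRCm38.p6).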

Additional observations from a re-analysis of the deposited data

Results flagged for a closer look

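In single libraries, Itga7 went from day 3 to day 5 in opposite directions, at 0.917 times in WT and at 1.33 and 1.35 times in Per1KO and Per2KO. Itgb1bp2 did likewise, at 0.884 times in WT and at 2.04 and 1.60 times in the knockouts. Against WT, Itga7 in Per1KO and Per2KO was at 0.715 and 0.690 times on day 0, at 0.833 and 0.802 times on day 3, and at 1.21 and 1.18 times on day 5. Itga6 was at 0.769 and 0.890 times WT on day 0, at 1.08 and 1.11 times on day 3, and at 1.47 and 1.25 times on day 5. These differences between days 3 and 5, and between single days, were not tested. Over both later days together, edgeR's adjusted p for a differing response was 0.478 for Itga6, 0.580 for Itga7 and 0.325 for Itgb1bp2.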

How the results depend on the processing

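Each population and day had 1 library, and WT was sequenced less deeply, so low genes such as Itgb7 after day 0 and Itga9 are limited by counting in WT. No paired analysis was possible because the labels carry no replicate numbers, beyond the comparison within day that the day term of each knockout fit already makes. The response without day 3 or day 5 could not be fitted, for lack of residual degrees of freedom.

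Of the 9 tested genes, Per1KO against WT called 1 with no filter, 4 with DESeq2, 1 with the 6 libraries compared, and 0 to 3 when a day was left out. Per2KO called 2 with no filter, 1 with the 6 libraries, and 1 to 4 without a day. Leaving out a population gave 2 to 8 for days 3 and 0, 4 to 8 for days 5 and 0, 0 to 5 for days 5 and 3, and 0 for the response. DESeq2 gave 2 for days 5 and 3, and the response gave 1 with no filter and 1 with DESeq2. Over all genes, Per1KO called 2575, against 1391 with the 6 libraries and 780 to 2814 without a day. Per2KO called 2652, against 1263 and 855 to 3138. Between the knockouts 0 became 1 with no filter and 1 with DESeq2. Days 3 and 0 called 4664 (1147 to 7684 without a population), days 5 and 0 6149 (2348 to 8586), and days 5 and 3 238 (0 to 1393, 370 with no filter, 733 with DESeq2). The response called 24 (0 without Per1KO or Per2KO, 679 with no filter, 585 with DESeq2). With the longest transcript, Itga7 held 62.8% to 79.3% and Itga5 7.25% to 15.6%, and the highest shares of Itgb1 and Itgb7 were 87.4% and 8.39%. The cause of these shifts was not tested.

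The 14 changes of sign were all in log2 fold changes that did not pass the threshold with all 9 libraries. Without a day, Per1KO against WT ranged from -0.13 to 0.33 for Itga6 and from -0.036 to 0.11 for Itgav. Per2KO ranged from -0.014 to 0.23 for Itga6 and from -0.15 to 0.044 for Itgav, which was 0.036 with no filter. Between the knockouts the ranges were -0.12 to 0.095 for Itga4, -0.012 to 0.051 for Itga5, -0.12 to 0.099 for Itga6 (-0.0047 with the 6 libraries) and -0.0063 to 0.13 for Itgav. Without a population, Itgav ranged from -0.086 to 0.12 for days 3 and 0 and from -0.12 to 0.022 for days 5 and 0, and for days 5 and 3 Itga5 ranged from -0.046 to 0.091 and Itgb1 from -0.015 to 0.053.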
